A study of Homo sapiens with 6 samples.

Results

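The genes of cholesterol and fatty acid synthesis were followed in SEM cells, a human leukaemia line of B-cell precursors (B-ALL) with the KMT2A::AFF1 fusion. The 30 members were taken by symbol from a fixed list, and all 30 were found among 62703 gene IDs; they comprise 18 enzymes of sterol synthesis, 5 genes of the SREBP system and sterol transport, and 7 enzymes of fatty acid synthesis and desaturation. Total RNA was sequenced from 3 knock-down libraries (KD) and 3 negative control libraries (NC). KD cells received Dicer-substrate siRNAs against the back-splice junction of AK_8_2, a circular RNA of the fusion gene, and NC cells a commercial non-targeting duplex. Both groups went through a reverse and then a forward lipid transfection 24 h apart, so the transfection reagent and duplex RNA are common to KD and NC. SEM is 1 line, and the submitters call the replicates independent without saying whether they were separate cultures, so p-values may measure only the spread between these libraries.

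Animal cells make cholesterol from acetyl-CoA through mevalonate, isoprenoids, squalene and lanosterol, and make fatty acids from the same precursor. Both routes are under the sterol regulatory element-binding proteins (SREBP), membrane-bound transcription factors encoded by SREBF1 and SREBF2. When membrane sterol is low, the escort protein SCAP carries them from the endoplasmic reticulum to the Golgi for cleavage; when it is high, INSIG1 holds SCAP back, and INSIG1 is itself an SREBP target. Growing leukaemia cells need both products for new membranes.

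SREBPs bind sterol regulatory elements beside the general factors NF-Y, which binds CCAAT, and SP1, which binds GGGCGG, so the promoters of 4 members whose levels are described in detail are shown: SREBF2, HMGCS1 and MSMO1 for the mevalonate and sterol branch and INSIG1 for the feedback arm. Sequences are from RefSeq on GRCh38.p14, on the strand of the gene, and run from 250 bases before to 50 after the start. Capitals mark TCACNCCAC, the core of the element, and CCAAT, each on either strand, where the reverse of CCAAT reads ATTGG. SREBF2 lies at chr22:41832855-41833154, plus strand, HMGCS1 at chr5:43313363-43313662, minus strand, INSIG1 at chr7:155297628-155297927, plus strand and MSMO1 at chr4:165327419-165327718, plus strand. The promoter of another HMGCS1 start, at chr5:43313132-43313431, held GGGCGG but neither of the marked motifs and is not shown.
SREBF2: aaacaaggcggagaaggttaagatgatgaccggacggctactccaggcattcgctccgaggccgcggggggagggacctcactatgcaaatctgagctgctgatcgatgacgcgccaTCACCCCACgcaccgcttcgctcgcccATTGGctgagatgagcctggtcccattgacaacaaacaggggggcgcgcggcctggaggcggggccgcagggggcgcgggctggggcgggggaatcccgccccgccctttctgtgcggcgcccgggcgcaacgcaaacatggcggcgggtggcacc
HMGCS1: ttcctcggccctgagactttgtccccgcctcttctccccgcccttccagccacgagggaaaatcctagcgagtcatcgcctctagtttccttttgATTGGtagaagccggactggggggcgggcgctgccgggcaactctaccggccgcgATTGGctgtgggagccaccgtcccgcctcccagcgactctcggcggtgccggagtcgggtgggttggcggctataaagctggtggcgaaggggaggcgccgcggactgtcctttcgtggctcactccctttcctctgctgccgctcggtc
INSIG1: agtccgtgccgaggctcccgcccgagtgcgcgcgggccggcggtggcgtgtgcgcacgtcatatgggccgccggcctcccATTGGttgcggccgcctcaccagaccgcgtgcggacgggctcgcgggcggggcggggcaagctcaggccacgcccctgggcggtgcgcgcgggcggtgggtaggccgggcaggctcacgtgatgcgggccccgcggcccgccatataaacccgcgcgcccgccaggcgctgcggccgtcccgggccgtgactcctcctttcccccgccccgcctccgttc
MSMO1: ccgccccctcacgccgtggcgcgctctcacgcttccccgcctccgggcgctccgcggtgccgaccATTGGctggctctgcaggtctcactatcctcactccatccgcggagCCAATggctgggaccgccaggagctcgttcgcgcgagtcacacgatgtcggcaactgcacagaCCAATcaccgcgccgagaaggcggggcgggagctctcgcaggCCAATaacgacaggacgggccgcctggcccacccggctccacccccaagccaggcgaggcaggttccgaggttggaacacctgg

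The promoter table held 26 of the members, with 35 promoters because 7 genes have more than 1 start. TCACNCCAC was found in 1 of the 35, that of SREBF2, where it begins at position -133 from the start, with an ATTGG beginning at -106; it was found in 1.13% of all 35116 promoters. CCAAT occurred on either strand in 24 of the 35 member promoters (68.6%) and in 34.6% of all promoters. GGGCGG occurred in 31 (88.6%), against 45.0% of all promoters and 64.7% of the 15793 promoters of genes tested here. The E-box CACGTG was present in 5 (14.3%), of INSIG1, SCAP, LSS and SC5D, against 7.26% of all promoters. No base of the core in SREBF2 is shared with another of these motifs; CCAAT and ATTGG overlap each other in 1 promoter each of IDI1 and NSDHL. Such matches describe the letters of a window and do not show binding. Nor does the lack of TCACNCCAC show that a gene has no sterol regulatory element, as only this string was sought for it, in this window alone.

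The libraries held 16531673 to 26694160 gene counts in KD and 14750579 to 24186646 in NC. Replicate 1 stood apart in both groups, with at least 48.6% of its records outside annotated features, a share of 11.3% to 17.3% in replicates 2 and 3. Records with several alignments made up 31.5% of KD replicate 3 and at most 17.3% of any other library. Of 10 B-cell precursor markers 9 passed the filter on low counts, PAX5 with mean counts scaled to a common library size (CPM) of 1091 ± 209 for KD and 1095 ± 172 for NC (± SD, 3 libraries a group). DNTT, the terminal transferase of early B-cell precursors, was nearly absent (0.0393 to 0.619 CPM in KD and 0 to 1.74 in NC), and RAG1 was at most 2.14 CPM in KD and 3.92 in NC. The 5 myeloid markers summed to 23.4 to 28.7 CPM in KD and 21.4 to 29.1 in NC, the 4 T and NK cell markers to 6.51 to 11.3 CPM in KD and 8.13 to 12.7 in NC, and the 3 erythroid markers to at most 0.732 in KD and 0.870 in NC. A count of KMT2A or AFF1 pools linear and circular RNA, so the extent of silencing is not measured here; for KMT2A the mean was 162 ± 18.5 CPM (KD) and 170 ± 41.7 CPM (NC), and for AFF1 212 ± 25.2 CPM (KD) and 214 ± 39.8 CPM (NC).

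All 30 genes were transcribed in SEM, and most stood well above the typical gene. Levels between genes are compared as TPM, a share of all transcripts for which each count is divided by the length of the gene's annotated exons. The median member had 59.8 TPM in KD and 58.6 TPM in NC, against 10.2 and 11.0 TPM for the median of 16266 tested genes with a known length, and 27 of the 30 were above that NC median. The ATP citrate lyase gene ACLY, whose product supplies cytosolic acetyl-CoA, was highest at 228 ± 10.4 TPM in KD and 239 ± 17.3 TPM in NC (± SD over 3 libraries a group); 2.83% of tested genes were higher in NC. Fatty acid synthase, FASN, followed at 175 ± 13.5 TPM in KD and 190 ± 32.6 TPM in NC. HMGCS1, whose product makes HMG-CoA on the mevalonate route, came next at 144 ± 47.7 TPM in KD and 145 ± 52.2 TPM in NC.

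Neighbours in this order mostly could not be told apart. In NC, the 3 values of a gene overlapped those of the next gene for 27 of 29 neighbouring pairs; the gaps lay below MVD and above CYP51A1. Below HMGCS1, with mean TPM for KD and then NC, came ELOVL6 (122 and 135), SREBF2 (130 and 134), FDFT1 (122 and 121), INSIG1 (94.3 and 102), FADS1 (95.5 and 101), SCD (96.3 and 101), IDI1 (101 and 99.9), FADS2 (86.5 and 95.6), FDPS (86.8 and 90.4), SQLE (83.01 and 86.9) and ACAT2 (85.5 and 82.7). The middle of the order, on the same scale, held EBP (63.2 and 62.4), PMVK (56.4 and 54.8), MSMO1 (47.8 and 47.4), SCAP (42.9 and 44.2), SREBF1 (35.8 and 37.3), ACACA (29.1 and 32.4), LSS (27.9 and 30.8), NSDHL (31.4 and 29.9), DHCR7 (23.5 and 25.6), STARD4 (16.96 and 19.5), SC5D (19.5 and 19.2) and MVD (17.8 and 18.0). At the low end were HSD17B7 (10.5 ± 2.38 TPM in KD and 11.1 ± 4.70 in NC), MVK (9.30 ± 3.82 and 8.94 ± 2.83) and TM7SF2 (7.51 ± 1.95 and 8.27 ± 2.76). CYP51A1, the lanosterol demethylase gene, was lowest at 2.97 ± 0.442 TPM in KD and 4.12 ± 0.787 TPM in NC. In GENCODE 29, 79.4% of its exon bases also belong to another protein-coding gene, AC000120.2, on the same strand, which has 0 counts in every library, and reads that fit both genes are set aside as ambiguous by the counting, so its value may cover only part of its RNA.

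**Figure D1:**
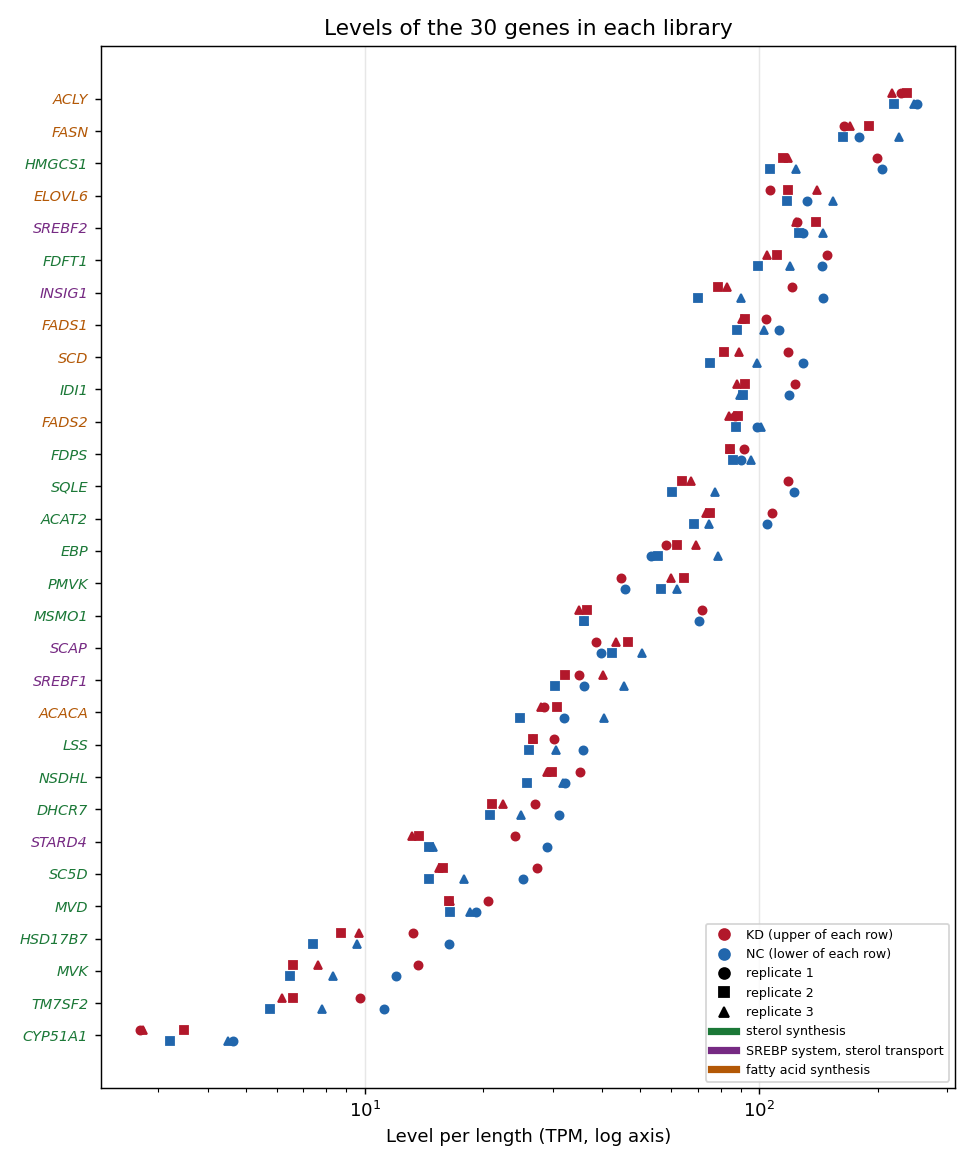
Level per length (TPM, log axis) of each of the 30 genes, ordered by the NC mean, with KD libraries (red) in the upper and NC libraries (blue) in the lower line of each row and a marker shape for each replicate number. ACLY is at the top (217 to 238 TPM in KD and 219 to 251 TPM in NC), CYP51A1 at the bottom, and for most genes the KD and NC points interleave while replicate 1 (circles) lies to one side.

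No change was detected in any of the 30 genes in KD, and all 30 had passed the filter on low counts. By edgeR's quasi-likelihood test over 16929 genes with Benjamini-Hochberg adjustment, 0 members passed an adjusted p under 0.05, as did 0% of all tested genes, and no member had an unadjusted p under 0.05, against 0.307% of all tested genes. In simulated data with seeded changes and a shift of replicate 1, this group-only fit recovered none of them. The sizes of the seeded changes and of the shift are not given here, so how far this carries over to these data cannot be judged. Replicate 1 stood apart here too, and the absence of calls in that fit does not by itself show that the members were unchanged. With the replicate number as a block, 0 members passed, against 0.171% of tested genes, and 1 member had an unadjusted p under 0.05 against 4.97%. DESeq2 and limma-voom also called 0 members. The median log2 fold change over the members was 0.01 in both fits, against -0.00 (group only) and -0.01 (block) over all tested genes.

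The size of change that these libraries leave possible differed between genes and fits. Without the block, 24 of the 30 genes had a 95% interval that stayed below 1.5-fold both ways (50.7% of all tested genes); the other 6 were MVK, PMVK, CYP51A1, MSMO1, EBP and STARD4. With the block, 29 of 30 had such an interval (66.6% of all tested genes), the exception being CYP51A1. These shares cover tested genes of all levels, with a median of 11.0 TPM in NC against 58.6 TPM for the members. Genes of like level were not compared. In fatty acid synthesis all 7 members were inside 1.5-fold in both fits. In the SREBP system and sterol transport 4 of 5 were inside without the block and all 5 with it.

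**Figure D2:**
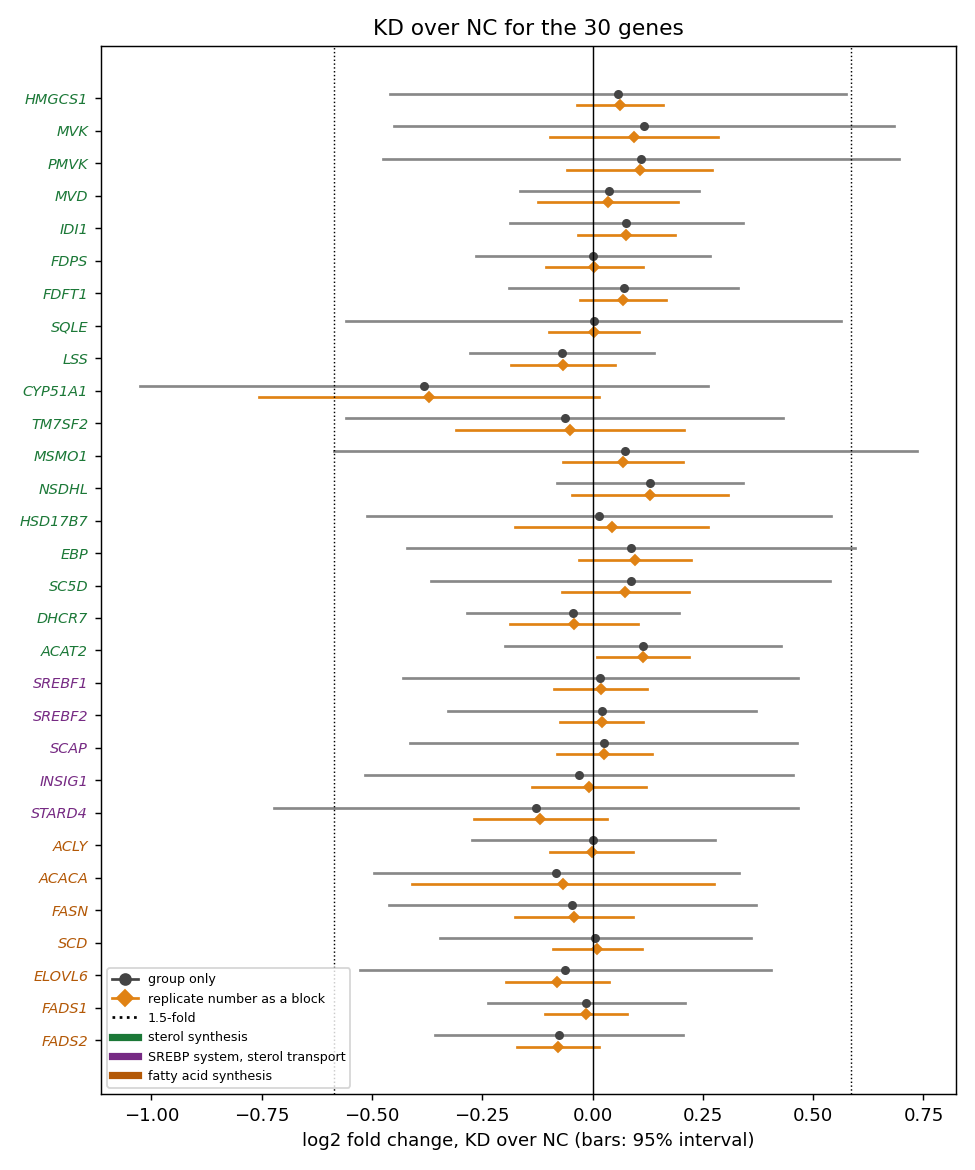
Log2 fold change of KD over NC for each gene with its 95% interval, from the fit with group only (grey, upper) and with the replicate number as a block (orange, lower); dotted lines mark a 1.5-fold change. The estimates run from -0.38 (CYP51A1) to 0.13 (NSDHL), and the interval of 1 gene, ACAT2 with the block (0.01 to 0.22), leaves out 0.

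Among the 18 enzymes of sterol synthesis, 14 had a higher and 4 a lower estimate in KD, with a median log2 fold change of 0.06 (group only) and 0.07 (block), and none passed in either direction. Of all 16929 tested genes, 8224 had a higher estimate in KD with group only and 8133 with the block. HMGCS1, the synthase of HMG-CoA, had 306, 204 and 226 CPM in the KD libraries, in the order of replicates 1 to 3 used throughout, against 302, 199 and 206 CPM in the NC libraries. Both groups were high in replicate 1 and overlapped throughout, and the log2 fold change was 0.06 (SE 0.22, edgeR adjusted p 1.00). ACAT2, the cytosolic thiolase that feeds this step, had 151, 122 and 128 CPM in KD and 141, 117 and 113 CPM in NC. Its values were higher in KD in all 3 replicate numbers, but the groups overlapped; the log2 fold change was 0.11 (SE 0.13) with group only and 0.12 (SE 0.05) with the block, with an edgeR adjusted p of 0.968 with the block. Part of the exons of ACAT2 lie opposite TCP1, SOD2 and SOD2-OT1 (9.2%, 26.5% and 33.9% of its exon bases), and the strand setting of the counting is not given. If strand was ignored, reads there that fit both ACAT2 and a counted gene opposite were set aside as ambiguous. The value of ACAT2 may then cover only part of its RNA.

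In the mevalonate and isoprenoid steps the groups lay close together. IDI1, the isomerase of isopentenyl diphosphate, had 175, 151 and 155 CPM in KD, against 162, 157 and 137 CPM in NC, a log2 fold change of 0.08 (SE 0.11), with KD lower in replicate 2 alone. The kinases MVK and PMVK stood at 0.12 (SE 0.24) and 0.11 (SE 0.25), the decarboxylase MVD at 0.04 (SE 0.09) and farnesyl diphosphate synthase, FDPS, at 0.00 (SE 0.11). Squalene synthase, FDFT1, which sends farnesyl units to sterols, stood at 0.07 (SE 0.11), and squalene epoxidase, SQLE, a rate-limiting step after squalene, at 0.00 (SE 0.24). With the block the standard errors of FDFT1 and SQLE were both 0.05.

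In the steps from lanosterol to cholesterol, NSDHL, a sterol dehydrogenase of demethylation, was the 1 member whose groups did not overlap, as was true of 3.43% of tested genes. It had 22.9, 22.5 and 23.5 CPM in KD and 20.1, 20.4 and 22.4 CPM in NC, a log2 fold change of 0.13 (SE 0.09, edgeR adjusted p 1.00). EBP, the sterol isomerase, had 45.8, 56.4 and 67.9 CPM in KD and 40.2, 52.9 and 66.7 CPM in NC. It was higher in KD within each replicate number by less than the spread between numbers, a log2 fold change of 0.09 (SE 0.21) and, with the block, 0.10 (SE 0.06).

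Lanosterol synthase, LSS, which closes the sterol rings, had 71.6, 73.1 and 78.5 CPM in KD and 81.0, 74.8 and 78.2 CPM in NC. These values overlapped, with replicate 1 furthest apart, and the log2 fold change was -0.07 (SE 0.09). CYP51A1 had the lowest estimate of the 30 genes, with 3.15, 4.71 and 3.99 CPM in KD and 5.22, 4.57 and 5.68 CPM in NC. These rest on 56, 120 and 76 counts in KD and 84, 105 and 130 in NC, and KD was lower in replicates 1 and 3 but not in replicate 2. The log2 fold change was -0.38 (SE 0.27) and, with the block, -0.37 (SE 0.18, edgeR adjusted p 0.999), with a 95% interval from -0.76 to 0.01. The remaining enzymes of this stretch were the methylsterol oxidase MSMO1 at 0.07 (SE 0.28), the reductase TM7SF2 at -0.06 (SE 0.21), the ketoreductase HSD17B7 at 0.02 (SE 0.22), the desaturase SC5D at 0.09 (SE 0.19) and the last reductase, DHCR7, at -0.04 (SE 0.10).

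In the SREBP system the groups differed by less than the spread between libraries. SREBF2, the factor mainly tied to sterol genes, had 309, 399 and 380 CPM in KD, against 306, 379 and 387 CPM in NC, a log2 fold change of 0.02 (SE 0.15; 0.04 with the block). SREBF1, mainly tied to fatty acid genes, had 91.5, 97.9 and 131 CPM in KD and 90.6, 96.6 and 129 CPM in NC, a log2 fold change of 0.02 (SE 0.19; 0.05 with the block). Same-numbered libraries of SREBF1 differed by 0.02 in log2 CPM in each number, while its level varied more between numbers within each group. Per length, the SREBF2 level was 3.58, 4.33 and 3.09 times that of SREBF1 in the KD libraries and 3.58, 4.17 and 3.18 times in NC.

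SCAP, the escort of the SREBPs, had 81.4, 113 and 113 CPM in KD and 80.1, 108 and 114 CPM in NC, a log2 fold change of 0.03 (SE 0.19). INSIG1, which holds SCAP back when sterol is high, had 144, 108 and 123 CPM in KD and 167, 101 and 116 CPM in NC. KD was lower than NC in replicate 1 and higher in replicates 2 and 3, and the log2 fold change was -0.03 (SE 0.20; -0.01 with SE 0.06 under the block). STARD4, a soluble sterol carrier, had 44.6, 29.4 and 30.4 CPM in KD, against 51.6, 32.8 and 29.9 CPM in NC. Replicate 1 was the highest in both groups, and the log2 fold change was -0.13 (SE 0.25) and, with the block, -0.12 (SE 0.07).

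Of the 7 enzymes of fatty acid synthesis and desaturation, 2 had a higher and 5 a lower estimate in KD without the block, with a median log2 fold change of -0.05 (group only) and -0.04 (block), and none passed in either direction. ACLY had 391, 469 and 460 CPM in KD and 410, 454 and 455 CPM in NC, a log2 fold change of 0.00 (SE 0.12; 0.04 with the block). ACACA, the acetyl-CoA carboxylase that makes malonyl-CoA, had 121, 151 and 148 CPM in KD and 131, 128 and 185 CPM in NC. NC replicate 3 was the highest of the 6 libraries, KD was higher in replicate 2 and lower in replicates 1 and 3, and the log2 fold change was -0.08 (SE 0.17). FASN showed the same signs, with differences in log2 CPM of -0.07, 0.15 and -0.21 in replicates 1, 2 and 3 and a log2 fold change of -0.05 (SE 0.18).

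FADS2, a desaturase of polyunsaturated fatty acids, was the 1 member lower in KD in all 3 replicate numbers. It had 313, 369 and 376 CPM in KD and 341, 381 and 393 CPM in NC, values that overlapped, with a log2 fold change of -0.08 in both fits (SE 0.12 group only and 0.04 block; edgeR adjusted p 0.999 with the block). Its neighbour FADS1, on the opposite strand with shared exon bases (4.8% of those of FADS1), stood at -0.01 (SE 0.09). The desaturase of saturated fatty acids, SCD, stood at 0.01 (SE 0.15) and the elongase ELOVL6 at -0.06 (SE 0.20).

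Within replicate numbers the direction of the members was mixed. KD was higher than NC for 16, 19 and 21 of the 30 genes in replicates 1, 2 and 3, with medians of 0.01, 0.04 and 0.02 in log2 CPM, against 0.00, -0.00 and 0.00 over all tested genes. Of all 16929 tested genes, 8636, 8341 and 8492 were higher in KD in replicates 1, 2 and 3. A single sign in all 3 numbers was seen for 8 of 30 members, against 25.7% of all tested genes. HMGCS1, PMVK, FDFT1, NSDHL, EBP, ACAT2 and SREBF1 were higher in KD each time and FADS2 lower. The 18 sterol enzymes had medians of 0.09, 0.04 and 0.04 in replicates 1, 2 and 3, and the 7 fatty acid enzymes -0.07, 0.04 and 0.02.

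**Figure D3:**
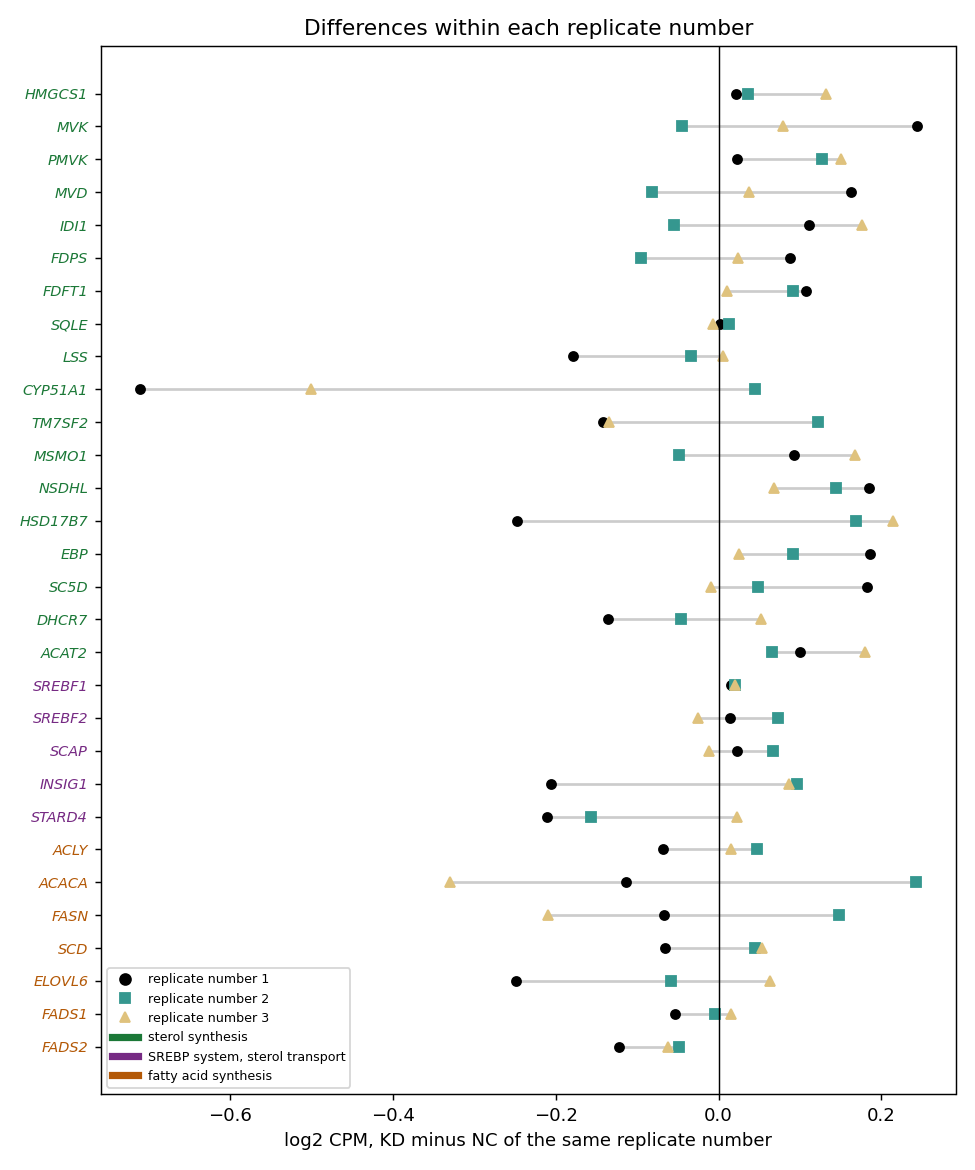
Difference in log2 CPM between the KD and NC libraries of the same replicate number, 1 marker for each number, with a grey line over the range of the 3. Most genes lie on both sides of 0 and within 0.25 of it; CYP51A1 reaches -0.71 in replicate 1 and -0.50 in replicate 3, and ACACA spans -0.33 to 0.24.

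Larger differences separated replicate 1 from replicates 2 and 3. They had the same sign in KD and NC for 27 of the 30 genes, against 84.1% of all tested genes. Of genes with a mean of at least 10 CPM, 85.2% had the same sign in both. This was seen before it was counted, and the limit of 10 CPM was chosen afterwards, so it is given with no test. Of the 28 members with a mean of at least 10 CPM, 13 were above the 75th percentile of such genes in both groups when replicate 1 was set against the mean of replicates 2 and 3, as were 18.0% of the 9293 genes at that level. SCD was the only fatty acid enzyme among these 13, and the others were sterol enzymes, INSIG1 and STARD4. MSMO1 was higher by 0.74 log2 CPM in KD, the largest difference there, and by 0.71 in NC, with 68.0, 39.9 and 41.1 CPM in the KD libraries and 63.7, 41.3 and 36.6 CPM in the NC libraries. SQLE was higher in replicate 1 by 0.59 in both groups, HMGCS1 by 0.51 in KD and 0.57 in NC, MVK by 0.68 and 0.46, SC5D by 0.55 and 0.39, INSIG1 by 0.32 and 0.62, STARD4 by 0.57 and 0.72, and HSD17B7 by 0.26 and 0.70.

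Below the 25th percentile in both groups were 4 of the 28 members, PMVK, EBP, SCAP and FASN, against 18.3% of genes at that level. In replicate 1, SREBF2 was lower by 0.34 log2 CPM in KD and 0.33 in NC, SREBF1 by 0.31 and 0.30, SCAP by 0.48 and 0.47, FASN by 0.39 and 0.35 and ELOVL6 by 0.53 and 0.28. For the sterol enzymes the lowest differences were those of PMVK (-0.74 in KD and -0.62 in NC) and EBP (-0.43 and -0.56). For the median gene with a mean of at least 10 CPM the difference was -0.16 in KD and -0.15 in NC. By group of genes the medians were 0.20 in KD and 0.17 in NC for the sterol enzymes, -0.31 and -0.30 for the SREBP system and sterol transport, and -0.25 and -0.18 for fatty acid synthesis. Replicate 1 was also where at least 48.6% of records lay outside annotated features, and the part of this in the differences was not tested.

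**Figure D4:**
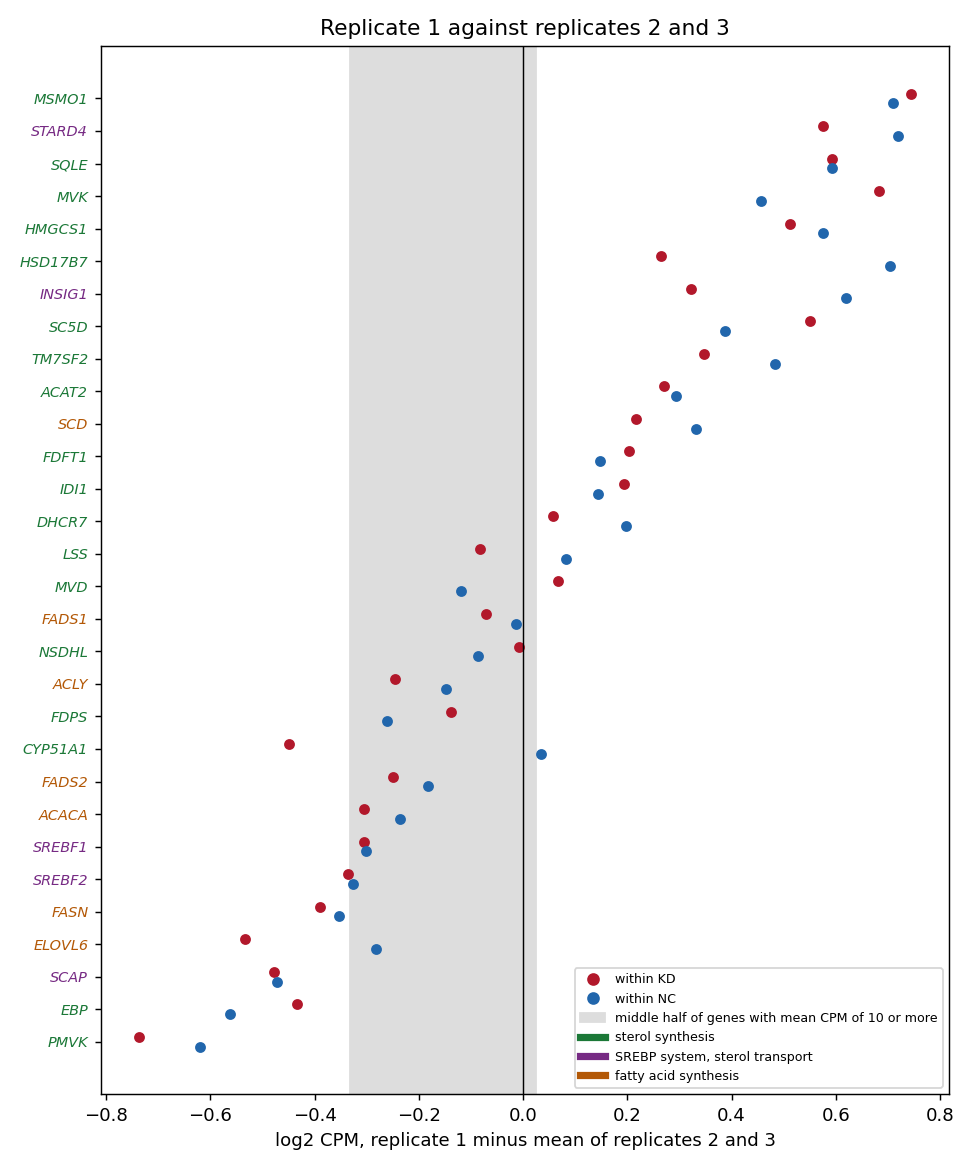
Difference in log2 CPM between replicate 1 and the mean of replicates 2 and 3, within KD (red) and within NC (blue), for each gene; the grey band runs from the 25th to the 75th percentile of genes with a mean of at least 10 CPM. By the mean of KD and NC, MSMO1, STARD4 and SQLE are highest and PMVK, EBP and SCAP lowest; the order differs in part between the groups.

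Other genes around these pathways gave no calls either. Of 10 genes of SREBP processing, 10 were tested and 0 passed in either direction in either fit, with a median log2 fold change of 0.02; SPRING1, a cofactor of SREBP cleavage, had the smallest unadjusted p, at -0.17, and the list ran from -0.17 to 0.06. The 11 genes of the isoprenoid branch had a median of 0.02, with COQ2, an enzyme of ubiquinone synthesis, at 0.19 and RABGGTB, a subunit of the Rab prenyltransferase, at -0.16, neither passing. Among fatty acid activation and elongation genes 24 of 25 were tested, with a median of 0.01, a range from -0.13 to 0.55, and the smallest unadjusted p for HACD1, at 0.12, and ACSS2, a cytosolic acetyl-CoA synthetase, at 0.11. For sterol efflux and LXR targets 9 of 11 were tested, with a median of -0.01, the lysosomal sterol carrier NPC2 at 0.22 and the nuclear receptor NR1H2 at 0.09. The sterol exporters ABCA1 and ABCG1 did not pass the filter, with at most 0.262 CPM in replicates 2 and 3. That range leaves out replicate 1, where more genes had any count (53121 in KD and 52077 in NC, against 30641 to 32311 in replicates 2 and 3). In fatty acid oxidation 16 of 17 were tested, with a median of 0.03, a range from -0.31 to 0.27, and the smallest unadjusted p for the carnitine carrier SLC25A20, at 0.27, and ETFB, a subunit of the electron transfer flavoprotein, at 0.17. No gene of these lists passed in either fit.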

How the data were processed

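The submitters' processing notes name STAR 2.7.10a and HTSeq 0.11.1, besides FastQC 0.11.8 and DESeq2, and hg38; trimming, strand setting and annotation release are not stated there. Each deposited file lists raw read counts per gene. Its 5 summary lines name no gene and were left out, so that 33.5% to 60.2% of a library's records were used. Symbols came from a name table by unversioned ID (62686 of 62703 IDs matched; for a repeated symbol the ID with the highest mean count), and coordinates and exon lengths from GENCODE 29. Levels are CPM with TMM-scaled library sizes; TPM used union exon lengths.

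KD over NC was tested with edgeR 4.0.16 in R 4.3.3 (filterByExpr, TMM, robust quasi-likelihood F test, Benjamini-Hochberg over 16929 genes), group only. Both fits were tested on simulated data with seeded changes: the fit with the replicate block recovered most of them, with and without a shift of replicate 1, and the fit with group only recovered most without the shift and none with it. Within-pair differences use log2 CPM with a prior count of 2. Same-numbered KD and NC libraries deviated together from their group's mean (Pearson's r over genes 0.889, 0.619 and 0.605 for numbers 1, 2 and 3), above the limit of 0.1 for treating the numbers as pairs; the labels state no pairing, and differently numbered KD and NC replicates 2 and 3 also correlated, at 0.553 and 0.590. No library of a group was a copy of another (chi-square of at least 20.2 for each degree of freedom). Alternatives were DESeq2 1.42.0, limma-voom (limma 3.58.1), RLE scaling, no filter, the replicate block, and libraries left out. All members were named; values per library were given for the SREBP genes, those with the smallest p and the extremes of level in each group of genes. Members, lists and rules were chosen with earlier results of these data known. Some genes that this rule or the marker lists would name are not reported here.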

Additional observations from a re-analysis of the deposited data

How the results depend on the processing

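No member was called under any alternative run, with or without the replicate number as a block. The count over all genes, 0 in the fit with group only, was 1 with DESeq2 and 29 with the replicate block. It was 0 in each fit that left out 1 library and without both replicate 1 libraries. With the block, 68 genes were called with no filter, and 5 to 119 when a replicate number was left out (5 without number 1, 119 without number 2 and 73 without number 3), none of them a member. With the block and without number 2, 3 members had an unadjusted edgeR p under 0.05, all lower in KD, as had 1251 of 29982 genes in either direction. ACACA came nearest to a call there, at -0.24 (edgeR adjusted p 0.0731). Without number 3 it stood at 0.07, and 2 members had such a p, both lower in KD, against 1225 of 29966 genes. The members' median log2 fold change, 0.01 with group only, ranged from -0.043 (without KD replicate 3) to 0.061 (without NC replicate 3) when 1 library was left out; these fits had medians over all genes of 0.10 and -0.09, and the cause was not tested. With the block the members' median was 0.01 and ranged from -0.019 (without number 2) to 0.024 (without number 3). The sign of single members, none of them called, changed for 1 of 30 with the block, 6 without both replicate 1 libraries and 5 to 12 when 1 library was left out. The replicate block narrowed the intervals and changed no member's call. With 3 libraries a group, the coefficient of variation of 0.372 without the block, against 0.0683 with it, limits what can be detected.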

Other observations

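Single pseudogene copies of the members took few reads, though for CYP51A1, itself low, they were not few beside the gene in replicate 1. The FDPS copies FDPSP1 to FDPSP8 each had 0 to 22 counts per library, the SCD copy SCDP1 0 to 15, and the IDI1 copies IDI1P1 to IDI1P3 each 0 to 9. The 3 copies of CYP51A1 each had 0 to 14 counts per library, against 56 to 130 for CYP51A1 itself. In KD replicate 1 they had 14, 11 and 7 counts against 56 of CYP51A1, and in NC replicate 1 11, 10 and 5 against 84. The copy HSD17B7P2 is listed under 2 IDs, of which one had 22, 15 and 21 counts in the KD libraries and 25, 11 and 18 in the NC libraries and the other at most 6, against 322 to 401 counts of HSD17B7 over the 6 libraries. Reads that match a gene and its copy equally well are in a summary line and in neither count.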
